A study of Mus musculus with 4 samples.

Results

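Aquaporins are membrane channels through which water, and in some members glycerol and hydrogen peroxide, crosses cell membranes. The genes described here are the 8 mouse aquaporin genes Aqp1, Aqp3, Aqp4, Aqp5, Aqp7, Aqp8, Aqp9 and Aqp11, of 55203 genes listed in each library. They were selected by gene symbol, which gave 43 of 141738 transcript rows, and the level of a gene was the sum over its rows.

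All tissue came from wild-type C57BL/6NTac male mice aged 8 to 12 weeks and kept specific-pathogen-free (SPF). Of the 4 RNA-seq libraries, 2 carry the label 4 mM RVC, for ribonucleoside vanadyl complex, which blocks ribonucleases, and 2 carry the label fresh frozen. The protocol text is the same for every library and mentions rinsing with RVC, so how the frozen tissue was handled rests on its label. The labels do not say whether libraries of a group came from separate mice, so p-values measure the spread between these libraries, which may be technical. No 2 libraries have the same batch number in the labels, so an effect of batch and one of group cannot be told apart.

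The tissue label reads ileum and the protocol reads distal colon. Of 4 distal colon genes, Car1 lay between 1576 and 1781 FPKM, Hoxb13 between 98.5 and 133, Hoxa13 between 20.5 and 22.2, and Hoxd13 between 5.68 and 39.5. A list of 7 ileum genes summed to between 5.14 and 7.03 FPKM, and 5 of them were listed at 0 throughout. The markers thus go against the ileum label. FPKM, the number of sequenced fragments scaled to the length of the transcript and the size of the library, is a level per length, so members can be compared with one another. Relative depth, read from the ratio of coverage to FPKM, lay between 72.6% and 100% of that of the deepest library, fresh frozen 2. The absolute depth is unknown.

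An aquaporin works as a tetramer in which each subunit forms its own pore, lined by a pair of short loops that usually carry the residues asparagine, proline and alanine. Members fall into water channels (Aqp1, Aqp4, Aqp5 and Aqp8), aquaglyceroporins that also pass glycerol (Aqp3, Aqp7 and Aqp9), and the divergent intracellular member Aqp11. In the colon, water follows absorbed salt across the epithelium, and aquaporins are among the routes it can take.

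The loops are visible in the coding sequence as the 9 letters AANCCNGCN, read in frame on the coding strand, and are shown here for the members above 1 FPKM, apart from Aqp4. Capitals mark the 9 letters, with 9 coding bases on either side, from the GENCODE vM39 transcripts of GRCm39.
Aqp8 first loop, exon 3, chr7:123063416-123063442, plus strand: ggacacttcAACCCTGCTgtgtcgctg
Aqp8 second loop, exon 5, chr7:123065825-123065851, plus strand: gcctgcatgAACCCTGCTcgtgccttt
Aqp1 first loop, exon 1, chr6:55313692-55313718, plus strand: gctcacctcAACCCTGCGgtcacactg
Aqp1 second loop, exon 3, chr6:55322813-55322839, plus strand: tgcggtatcAACCCTGCCcggtcattt
Aqp11 first loop, exon 1, chr7:97386883-97386909, minus strand: acagctagcAACCCGTGCggcgtgatg
Aqp11 second loop, exon 2, chr7:97378251-97378277, minus strand: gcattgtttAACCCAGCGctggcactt
Aqp8 and Aqp1 held AANCCNGCN at both places, as did Aqp3, Aqp4, Aqp5 and Aqp9. Aqp11 held it only in the second, and its first loop read AANCCNTGN, in which the last codon differs. Aqp7 held neither set of letters in its coding sequence. Of 21555 canonical protein-coding transcripts, 2.31% held AANCCNGCN in frame at 2 or more places and 8.20% held AANCCNTGN at 1 or more.

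The family was dominated by 1 member. Aqp8 took 95.9%, 94.5%, 94.5% and 85.3% of the summed aquaporin FPKM in RVC 1, RVC 2, fresh frozen 1 and fresh frozen 2. Aqp4, Aqp1 and Aqp11 followed, each above 1 FPKM in every library. The aquaglyceroporins Aqp3, Aqp7 and Aqp9 did not exceed 0.267 FPKM in any library, and Aqp5 was listed at 0.

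**Figure D1:**
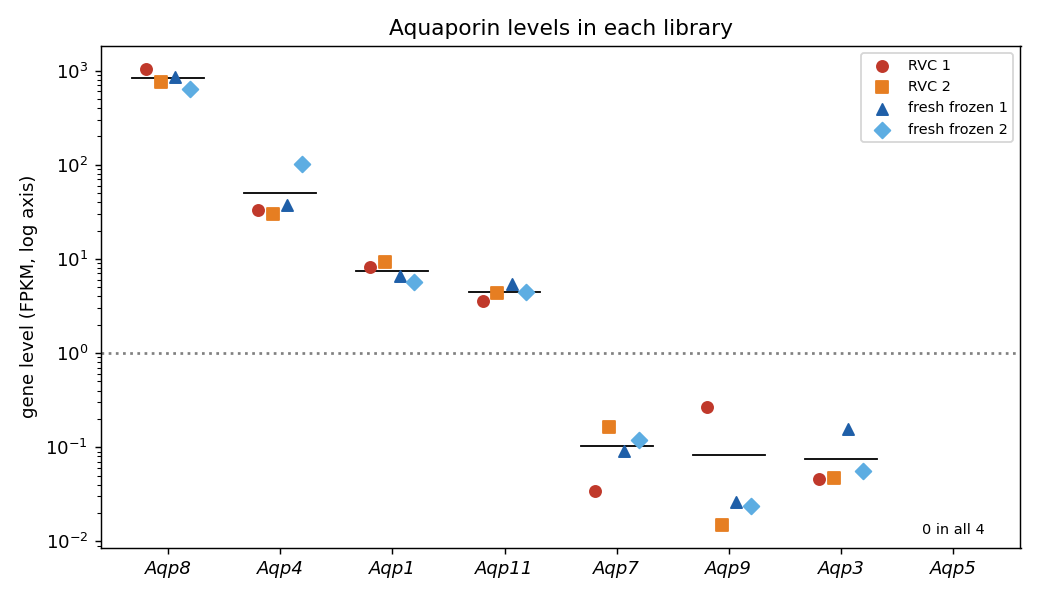
Level of each aquaporin gene in FPKM on a log axis, with 1 point per library and a line at the mean of the 4 libraries; the dotted line marks 1 FPKM. Aqp8 lies between 642 and 1046 FPKM, Aqp4, Aqp1 and Aqp11 lie between 3.57 and 101, and Aqp7, Aqp9 and Aqp3 lie at or under 0.267.

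Aqp8 (ENSMUSG00000030762, chromosome 7, 123061514 to 123067227, plus strand, GRCm39) encodes a water channel of the colonic epithelium. RVC 1 had 1046 FPKM and RVC 2 had 754, fresh frozen 1 had 854 and fresh frozen 2 had 642, and the mean was 824 ± 171 (SD, n = 4). RVC 1 was highest and fresh frozen 2 lowest, and the groups overlapped. Among 21505 protein-coding genes it ranked 40, 65, 56 and 69 in the same order of libraries. The confidence bounds that Cufflinks gave for its main transcript, Aqp8-201, ran from 855 to 931 FPKM in RVC 1 and from 529 to 578 in fresh frozen 2. The bounds of the 4 libraries did not overlap one another, so the libraries differed by more than the estimation error of each.

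The 3 rows of Aqp8 were unequal, with 2 of them taking nearly all of its FPKM. Aqp8-201 (ENSMUST00000033023) carried 85.4%, 84.4%, 85.4% and 86.3% of the gene level in RVC 1, RVC 2, fresh frozen 1 and fresh frozen 2. Aqp8-202 (ENSMUST00000098056) carried 14.6%, 15.6%, 14.6% and 13.7%, a mean of 14.6% ± 0.772 (SD, n = 4). The split varied far less between libraries than the level of the gene did.

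In GENCODE vM39 both rows have 6 exons with the same coding ends, and they differ in the coding sequence by where exon 2 begins. The letters are shown because this is the only coding difference between the rows. Capitals mark the 3 bases present in Aqp8-202 alone, first in the genome from the last 30 bases of the intron (chr7:123061764-123061823, plus strand, GRCm39) and then in the joined coding exons, which start at the start codon.
Aqp8 end of intron 1 and start of exon 2: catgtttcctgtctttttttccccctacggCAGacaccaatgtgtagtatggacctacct
Aqp8-201 joined exons: atgtctggggagacaccaatgtgtagt
Aqp8-202 joined exons: atgtctggggagCAGacaccaatgtgtagt
The intron of Aqp8-201 runs from gt to ag, the usual pair. That of Aqp8-202 starts with gt and ends with gg. Of 25032 distinct introns of protein-coding transcripts on chromosome 7 in this annotation, 99.9% end with ag and 1 ends with gg, this one. The deposited row of Aqp8-202 is 1451 nt long against 1487 nt, with shorter outer ends as well, so its share does not rest on these 3 bases alone.

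**Figure D2:**
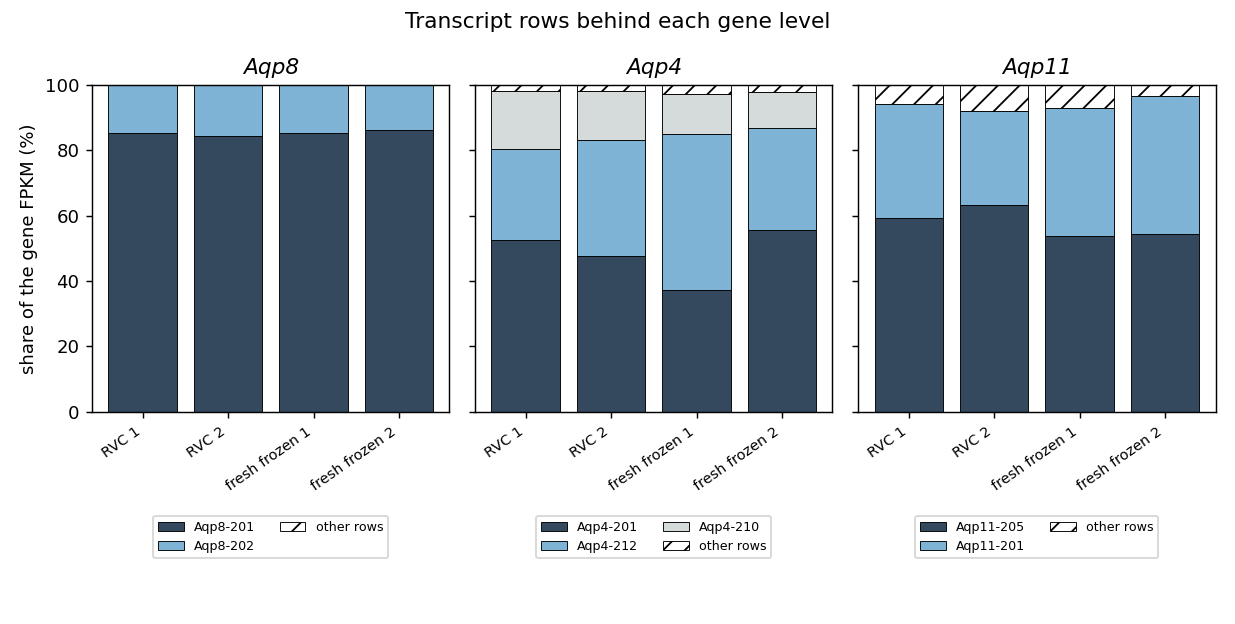
Share of the gene level, in percent of FPKM, carried by each transcript row with a mean of at least 1 FPKM (colours) and by the other rows (hatched), in the 4 libraries for Aqp8, Aqp4 and Aqp11. Aqp8-202 stays between 13.7% and 15.6%, whereas Aqp4-212 ranges from 27.8% to 47.8%.

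Aqp4 (ENSMUSG00000024411, chromosome 18, minus strand) encodes the water channel best known from astrocytes, also found on the basolateral side of gut epithelium. RVC 1 had 32.7 FPKM and RVC 2 had 30.2, while fresh frozen 1 had 37.7 and fresh frozen 2 had 101. The last library stood apart, at 3.33 times the lowest value, and the mean was 50.3 ± 33.7 FPKM (SD, n = 4). The fresh-frozen libraries differed more from each other than fresh frozen 1 did from either RVC library. The level of Aqp8 was 6.38 times that of Aqp4 in fresh frozen 2 and between 22.7 and 31.9 times in the others.

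Of the 12 Aqp4 rows, 3 had a mean of at least 1 FPKM. Aqp4-201 (ENSMUST00000079081), which has the upstream first exon, measured 17.2, 14.4, 14.0 and 55.9 FPKM in RVC 1, RVC 2, fresh frozen 1 and fresh frozen 2. Aqp4-212 (ENSMUST00000238946) starts where the second exon of Aqp4-201 starts, which leaves a later start codon, and its annotated reading frame runs past the stop codon of Aqp4-201. It measured 9.09, 10.8, 18.01 and 31.3 FPKM. Aqp4-210 (ENSMUST00000234643), with another first exon and the same later start codon, measured 5.76, 4.47, 4.59 and 11.3 FPKM. All 3 rows were highest in fresh frozen 2. In fresh frozen 1, Aqp4-212 was the largest row, at 47.8% of the gene level, and Aqp4-201 was the largest in the other 3 libraries, at 47.5% to 55.6%. Cufflinks divides reads between rows that share exons, so single rows are less certain than the gene level.

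Aqp1 (ENSMUSG00000004655, chromosome 6, 55313417 to 55325540, plus strand) encodes the water channel of red cells and of blood vessel endothelium. It has 1 row in the files and stood at 8.26 FPKM for RVC 1, 9.21 for RVC 2, 6.58 for fresh frozen 1 and 5.64 for fresh frozen 2. Both RVC libraries were above both fresh-frozen libraries. The mean over all libraries was 7.42 ± 1.61 FPKM (SD, n = 4).

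Aqp11 (ENSMUSG00000042797, chromosome 7, 97373213 to 97387496, minus strand) encodes a divergent channel of intracellular membranes. It measured 3.57, 4.34, 5.47 and 4.47 FPKM in RVC 1, RVC 2, fresh frozen 1 and fresh frozen 2, a mean of 4.46 ± 0.777 (SD, n = 4). Both RVC libraries were below both fresh-frozen libraries, RVC 2 by little. The row Aqp11-205 (ENSMUST00000206389), with 3 exons, carried 59.3%, 63.2%, 53.9% and 54.3% of it, and Aqp11-201 (ENSMUST00000084986), with 2 exons and no annotated start codon, carried 34.9%, 28.8%, 38.9% and 42.4%.

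Aqp11-201 lacks the second exon of Aqp11-205, which is 117 bases long and all coding. It is shown because it contains the second pore loop, in capitals (chr7:97378178-97378294, minus strand, GRCm39).
Aqp11 exon 2: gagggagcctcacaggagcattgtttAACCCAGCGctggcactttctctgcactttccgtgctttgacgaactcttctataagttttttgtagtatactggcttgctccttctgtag
So a mean of 36.3% ± 5.85 (SD, n = 4) of the Aqp11 level was assigned to a row without that loop. The share was higher in both fresh-frozen libraries than in both RVC libraries. How often shares of other genes separate the groups was not counted, and in level 50.4% of all transcripts tested did so. The Cufflinks bounds of Aqp11-201 overlapped between the groups, at 0.626 to 1.87 FPKM in RVC 1 and 1.27 to 2.98 in fresh frozen 1. The difference in share was not tested.

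The aquaglyceroporins were near the floor of these libraries. Aqp3 (chromosome 4, 41092722 to 41098183), which passes water and glycerol in epithelia, was listed at 0.0457, 0.0466, 0.154 and 0.0553 FPKM in RVC 1, RVC 2, fresh frozen 1 and fresh frozen 2. Aqp7 (chromosome 4, 41033074 to 41048139), the glycerol channel of adipose tissue, was listed at 0.0347, 0.165, 0.0920 and 0.121 FPKM. These genes are neighbours, 44582 bases apart, and neither exceeded 0.165 FPKM in any library. Aqp9 (chromosome 9, 71017941 to 71075964), the glycerol channel of hepatocytes that is also found in neutrophils, was listed at 0.267, 0.0150, 0.0261 and 0.0238 FPKM.

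Aqp9 was thus highest in RVC 1, with its FPKM there in the rows ENSMUST00000135892 and ENSMUST00000113570. The Cufflinks lower bounds of these rows were 0 and 0.00239 FPKM. For Aqp3, the lower bound of its main row, Aqp3-201, was 0 in every library. Aqp5 (chromosome 15, 99488663 to 99492710), the channel of salivary and lacrimal glands and lung, was listed at 0 in all 6 rows of all 4 libraries, with upper bounds of 0. Actb, which every cell uses, was at 1974 FPKM or more in each library.

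Markers were read for neutrophils, a known site of Aqp9, and for adipocytes, a known site of Aqp7. Of 5 neutrophil markers, S100a8, S100a9, Retnlg and Cxcr2 did not exceed 0.321 FPKM in any library, and the fifth, Ly6g, was between 169.6 and 333 FPKM. Of 5 adipocyte markers, Cidec lay between 0.760 and 1.53 FPKM and Cfd reached 1.66 in fresh frozen 1, while Adipoq, Plin1 and Lep did not exceed 0.323 FPKM in any library. No such check was made for Aqp3, which is known from epithelia. In bulk tissue, fewer cells of a type and less RNA per cell cannot be told apart.

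In order of mean level the family ran Aqp8, Aqp4, Aqp1, Aqp11, Aqp7, Aqp9, Aqp3 and Aqp5. The ranges of neighbours did not overlap from Aqp8 down to Aqp7, and the closest pair was Aqp1, with a lowest value of 5.64 FPKM, above Aqp11, with a highest value of 5.47. Aqp11 lay at least 26.2 times above Aqp7 in each library. Aqp7, Aqp9 and Aqp3 overlapped, and their order is not resolved. The other aquaporin genes Aqp2 and Aqp6 were listed at 0 in every library, Mip did not exceed 0.0612 FPKM, and Aqp12 lay between 0.0879 and 0.204 FPKM.

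Sequence shared between genes was checked because it can move reads between them. Of all 50-base words in the vM39 transcripts of the 8 genes, none was shared between 2 of them, and Aqp1, Aqp4 and Aqp8 shared none with any other gene on either strand. For Aqp11, 0.0633% of words were shared with other genes on the same strand. Aqp7 shared 3.41% on the same strand and 3.66% on the opposite strand. Opposite-strand sharing was 9.78% for Aqp5, the highest of the 8, and 3.45% for Aqp9. Aqp4 overlaps the antisense gene Gm50048, which did not exceed 0.139 FPKM, and Aqp5, Aqp7 and Aqp9 overlap antisense genes listed at 0 or not analysed here. Whether counting used strand is not given in the sources used here.

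RVC and fresh frozen were compared gene by gene with limma, after scaling of the libraries and addition of 1 FPKM on the log2 scale; p-values were adjusted by Benjamini-Hochberg over 13771 genes, with a threshold of 0.05. Only Aqp1, Aqp4, Aqp8 and Aqp11 had the mean of at least 1 scaled FPKM needed to be tested, and 0 of these 4 passed, where 0.0363% of all genes did. At an unadjusted limma p under 0.05 there were 2 of 4, Aqp1 and Aqp4, against 18.4% of all genes. The groups did not overlap for 3 of 4, Aqp1 on the higher side in RVC and Aqp4 and Aqp11 on the lower side, against 53.2% of all genes (26.5% higher and 26.6% lower in RVC). A permutation of 2 libraries against 2 cannot reach 0.05, so these values rest on the model across genes.

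For Aqp1 the RVC mean was 8.73 ± 0.672 FPKM and the fresh-frozen mean 6.11 ± 0.668 (SD over 2 libraries). The log2 fold change, RVC minus fresh frozen, was 0.46 (SE 0.13), and limma gave an adjusted p of 0.161. For Aqp4 the RVC mean was 31.5 ± 1.79 FPKM and the fresh-frozen mean 69.2 ± 44.5 (SD over 2 libraries). The log2 fold change was -0.95 (SE 0.39), and limma gave an adjusted p of 0.263. Without fresh frozen 2 the log2 fold change of Aqp4 was -0.24, and without fresh frozen 1 it was -1.66 with a limma adjusted p of 0.00911, past the threshold. In the latter fit the lone fresh-frozen library is assumed to vary like the RVC pair, so the size of the Aqp4 difference rests on fresh frozen 2.

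For Aqp8 the RVC mean was 900.1 ± 206 FPKM and the fresh-frozen mean 748 ± 150.1 (SD over 2 libraries), and the means were less apart than the libraries of either group. Its log2 fold change was 0.27 (SE 0.21, limma adjusted p 0.497). With 1 library left out it ran from 0.028 without RVC 1 to 0.50 without RVC 2. Aqp11 had a log2 fold change of -0.26 (SE 0.15, limma adjusted p 0.369). It was -0.16 without RVC 1 or without fresh frozen 1, and -0.37 without RVC 2 or without fresh frozen 2. From its most abundant row alone it was -0.090. Adding 1 understates the change of low genes, and with 0.1 added instead the value was -0.32 for Aqp11 and 0.52 for Aqp1.

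**Figure D3:**
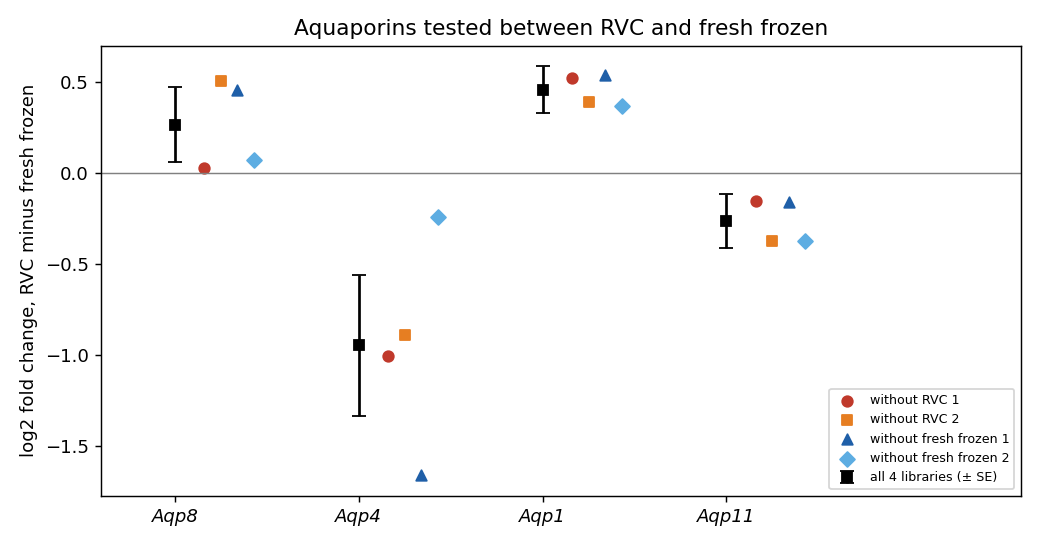
Log2 fold change of the 4 tested aquaporins, RVC minus fresh frozen, with black squares and bars for the value ± SE over all 4 libraries and coloured points for the value with 1 library left out. Aqp1 stays between 0.37 and 0.54, while Aqp4 moves from -1.66 without fresh frozen 1 to -0.24 without fresh frozen 2.

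Of 24080 transcripts tested in the same way, 8 were aquaporin rows and 0 of these passed, where 0.00415% of all transcripts did. At an unadjusted limma p under 0.05 there were 2, Aqp4-212 and Aqp1-201, against 15.6% of all transcripts. Aqp4-212 (ENSMUST00000238946) had a log2 fold change of -1.18 (SE 0.29) and a limma adjusted p of 0.241, and its groups did not overlap. For Aqp4-201 (ENSMUST00000079081) the value was -0.81 (SE 0.64, limma adjusted p 0.570), and the groups overlapped. In all, the groups did not overlap for 3 of the 8 rows, against 50.4% of all transcripts (25.4% higher and 24.9% lower in RVC). Aqp1-201 was higher in RVC and both others lower, and the last of them was Aqp11-201 (ENSMUST00000084986), at -0.42 (SE 0.17, limma adjusted p 0.325).

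Markers of cell types that could hold these channels were read in the same libraries. At the adjusted threshold limma called none of them, where it called only 0.0363% of all genes. Blood endothelium, where Aqp1 is known, had 8 markers that summed to 24.5 and 23.6 FPKM in RVC and to 12.3 and 15.4 in fresh frozen, with none at 0 in any library. All 7 of them that were tested were higher in RVC without overlap, against 26.5% of all genes, and the median of their log2 fold changes was 0.58. All 7 smooth muscle markers were also higher without overlap, against the same 26.5%, with a median of 0.88, and summed to 1110 and 1660 FPKM in RVC against 680 and 731. So were all 3 tested markers of lymphatic endothelium, with a median of 0.96, and 4 of 5 macrophage markers, with a median of 0.44. Within the epithelium, 5 of 7 surface colonocyte markers were also higher without overlap and 0 lower, with a median of 0.25. Of 7 goblet markers, 1 was higher and 1 lower without overlap. Of 4 tested markers of the crypt base and of cycling cells, 0 were higher and 2 lower. Outside the epithelium, not all lists were higher in RVC. Without overlap, 0 of 6 fibroblast markers (median 0.18) and 0 of 5 tested enteric neuron markers (median 0.19) were higher. Of 4 mesothelium markers, 0 were higher and 2 lower without overlap, against 26.6% of all genes lower, with a median of -0.073. Red cells are another known site of Aqp1. Their markers summed to 328, 93.3, 326 and 59.1 FPKM in RVC 1, RVC 2, fresh frozen 1 and fresh frozen 2. The sum was highest in RVC 1 and fresh frozen 1, and Aqp1 was highest in RVC 2 and RVC 1. The part of these cell types in the Aqp1 difference was not tested.

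For Aqp4, 6 markers of the crypt base and of cycling cells were set beside it after their values were seen. They summed to 18.6, 20.2, 24.5 and 30.4 FPKM in RVC 1, RVC 2, fresh frozen 1 and fresh frozen 2. Mki67 and Top2a made up most of the sum, and 4 of 6 markers were highest in fresh frozen 2. Lgr5 was highest in RVC 1 and Ascl2 in fresh frozen 1. The share of all genes that were highest in fresh frozen 2 was not counted. In fresh frozen 2 the sum was 1.30 times its own mean over the 4 libraries, against 2.00 times for Aqp4. Enteric glia, another known site of Aqp4, had 5 markers that summed to 3.38, 4.36, 2.54 and 3.04 FPKM, highest in RVC 2, where Aqp4 was lowest. For Aqp8, 7 markers of surface colonocytes summed to 18045, 17236, 16234 and 12309 FPKM in the same order of libraries. Of these, 6 of 7 were highest in RVC 1 and none in fresh frozen 2. The share of all genes that were highest in RVC 1 was not counted. Other lists leaned the same way, with 5 of 7 goblet markers and 7 of 12 salt transport genes highest in RVC 1. Lypd8 made up most of the sum, at 10405, 10462, 10020 and 6743 FPKM. Guca2a and Ceacam1 were lowest in fresh frozen 1. The sum was higher in RVC 2 than in fresh frozen 1, and Aqp8 had the reverse order. The sum was lowest in fresh frozen 2, where Aqp4 was highest. The part of these cells in the Aqp4 and Aqp8 values was not tested.

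**Figure D4:**
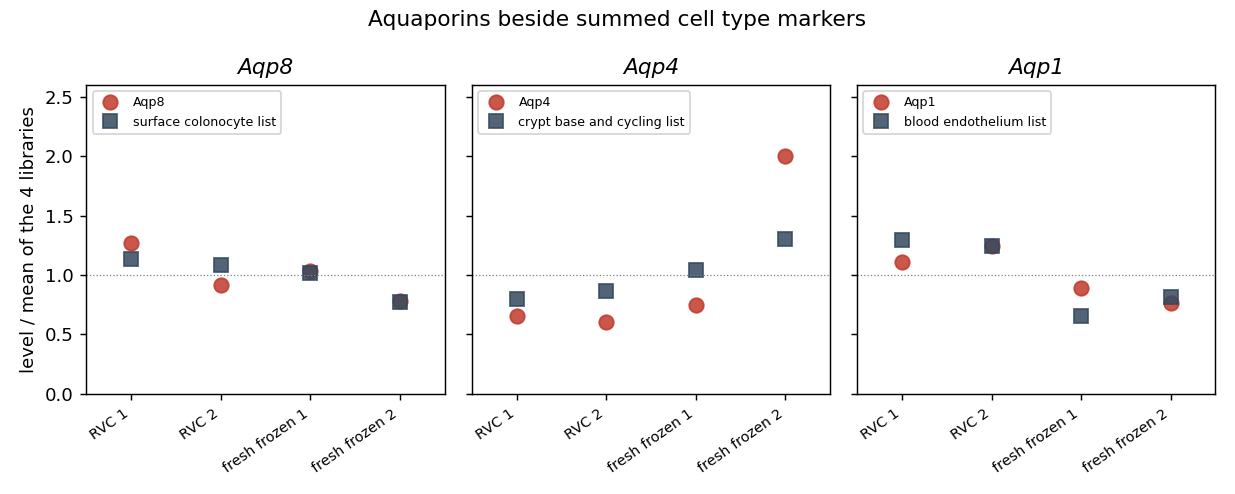
Level of Aqp8, Aqp4 and Aqp1 (circles) and summed FPKM of a marker list (squares), each divided by its own mean over the 4 libraries, for surface colonocytes, crypt base and cycling cells, and blood endothelium. Aqp4 in fresh frozen 2 is at 2.00 times its mean and the crypt list at 1.30 times. Lypd8 makes up most of the surface colonocyte sum.

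Genes of related roles were read from the same fit, and the median log2 fold change over all 13771 genes tested was 0.0066. None of the lists held a gene past the adjusted threshold, which only 0.0363% of all genes passed. Of all genes tested, 18.4% had an unadjusted limma p under 0.05, the share to set beside each list count below. The groups did not overlap for 53.2% of all genes, the class from which 1 gene per list is named. The 16 genes of glycerol and triglyceride turnover, which act on what aquaglyceroporins carry, were all tested and had a median of 0.12, with 3 at an unadjusted limma p under 0.05. Most abundant were Pnpla2, the adipose triglyceride lipase, at between 33.5 and 47.7 scaled FPKM, and Agpat2, an acyltransferase, at between 24.7 and 33.3. Dgat2, which completes triglyceride synthesis, had 20.9 and 18.4 scaled FPKM in the RVC libraries against 14.6 and 14.3 in the others, a log2 fold change of 0.42 (SE 0.12, limma adjusted p 0.158). Gk, the glycerol kinase gene, was chosen after its values were seen, and had 15.6 and 15.2 against 34.04 and 19.4 scaled FPKM, at -0.71 (SE 0.23, limma adjusted p 0.196).

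All 12 genes of salt transport were tested, with a median of 0.095 and 3 at an unadjusted limma p under 0.05. The chloride and bicarbonate exchanger Slc26a3 lay between 852 and 1253 scaled FPKM, and the sodium pump subunit Atp1b1 between 734 and 847. Slc12a2, the chloride loader of secreting cells, had 19.6 and 19.6 scaled FPKM in the RVC libraries against 33.2 and 43.5 in the others, a log2 fold change of -0.92 (SE 0.14, limma adjusted p 0.112). Like Aqp4, it was highest in fresh frozen 2.

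Of the osmotic response genes, 7 of 9 were tested, with a median of -0.15 and 2 at an unadjusted limma p under 0.05. Sgk1, a kinase that raises sodium uptake, lay between 132.9 and 230.5 scaled FPKM and was highest in RVC 1 and fresh frozen 1. Akr1b3, which makes sorbitol, lay between 33.1 and 43.0. The chaperone gene Hspa4l had 5.96 and 6.18 scaled FPKM in the RVC libraries against 7.50 and 10.4 in the others, a log2 fold change of -0.48 (SE 0.16, limma adjusted p 0.203).

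Hydrogen peroxide, which several aquaporins pass, is covered by 11 genes, all tested, with a median of -0.030 and 4 at an unadjusted limma p under 0.05. The peroxidase genes Gpx1 and Prdx1 were the most abundant, at up to 142.9 and 239.7 scaled FPKM. Gpx2, the glutathione peroxidase of gut epithelium, had 63.1 and 74.5 scaled FPKM in the RVC libraries against 106 and 101 in the others, a log2 fold change of -0.59 (SE 0.12, limma adjusted p 0.129).

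Of 10 genes for anchoring and control of aquaporins, 8 were tested, with a median of 0.14 and 2 at an unadjusted limma p under 0.05. Ezr, a linker of membrane to actin, lay between 168 and 231 scaled FPKM and Dag1, the dystroglycan that ties the Aqp4 complex to the matrix, between 25.1 and 30.5. Dtna, a dystrobrevin, had 5.69 and 6.72 scaled FPKM in the RVC libraries against 2.74 and 3.36 in the others, a log2 fold change of 0.83 (SE 0.15, limma adjusted p 0.129). The receptor gene Avpr2, through which vasopressin acts on the kidney channel Aqp2, did not exceed 0.198 FPKM in any library and was not tested. The urea transporter genes Slc14a1 and Slc14a2 were not tested either, at no more than 0.235 FPKM and listed at 0.

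**Figure D5:**
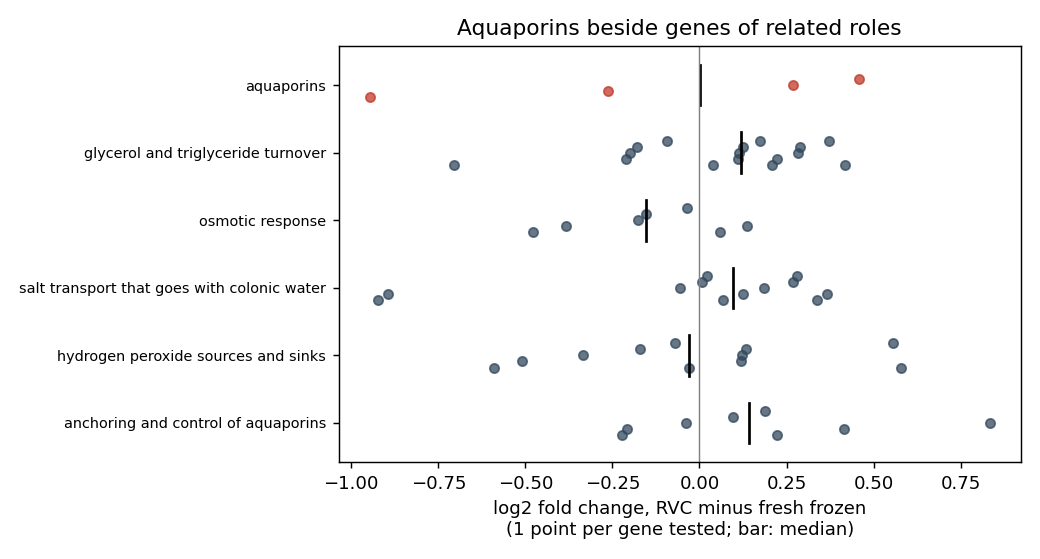
Log2 fold change, RVC minus fresh frozen, of the 4 tested aquaporins and of the tested genes of 5 lists of related roles, 1 point per gene with a bar at each median. The list medians lie between -0.15 and 0.14. None of the genes shown passed the adjusted threshold, which only 0.0363% of all genes tested passed.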

How the data were processed

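Whole-tissue RNA was depleted of ribosomal RNA and sequenced as read pairs in 4 libraries. Per the submitters' processing notes, reads were aligned with TopHat2 2.1.1 to GRCm39 and quantified with Cufflinks 2.2.1; the annotation release, strand setting and read counts are not given in the sources used here. The deposited values are FPKM per transcript with confidence bounds, and coverage, a signal of estimated reads per base, per the file headers. Since FPKM is a normalized value, tests for read counts were not applied.

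Gene FPKM was the sum over rows. Libraries were scaled by median ratio (factors 0.992 to 1.01), and log2(scaled FPKM + 1) was fitted with limma 3.58.1 in R 4.3.3 (trend, two-sided, no covariate). Genes needed a mean of at least 1 scaled FPKM, a longest transcript of at least 300 nt and an OK status in every library. The fit was tested on simulated data. Of the 43 aquaporin rows, 42 are in GENCODE vM39, which gave exons and sequences. Members, lists and tests were chosen with earlier results of these data known, and the marker lists set beside members were picked from 16 after their values were seen. Named list genes are the 2 most abundant and the 1 of smallest p without overlap; alternatives changed scaling, pseudocount, filters, row choice, trend, block and libraries. Tables used pandas 2.3.3 and figures matplotlib 3.10.9.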

Additional observations from a re-analysis of the deposited data

Results flagged for a closer look

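With the 4 libraries taken as 1 set, 3 of 15 levels and transcript shares had a library set far apart from the others. Its gap to the nearest neighbour was above Dixon's limit, which chance passes about 1 time in 20 for normally distributed values. The 15 are not independent, since shares of a gene depend on one another, and Aqp5, at 0 throughout, could not be flagged. The count can therefore not be set against 1 in 20. Aqp4 was at 101 FPKM in fresh frozen 2, a gap of 0.894 of its whole range. Aqp9 was at 0.267 FPKM in RVC 1 (0.956 of the range) and Aqp3 at 0.154 FPKM in fresh frozen 1 (0.911), both at levels where Cufflinks lower bounds reach 0 for some or all of their rows.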

How the results depend on the processing

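The count of aquaporin genes past the threshold was 0 under every alternative except without fresh frozen 1, so it ran from 0 to 1 with libraries left out, and the count of aquaporin rows was 0 throughout. Of 15 alternatives, the log2 fold change of Aqp1 ran from 0.37 to 0.54 and its limma adjusted p from 0.129 to 0.462; that of Aqp8 ran from 0.028 to 0.50 (0.352 to 0.981) and that of Aqp4 from -1.66 to -0.24 (0.00911 to 0.577). Aqp11, with 14, ran from -0.37 to -0.090. With 1 library left out, the value of Aqp4-201 (ENSMUST00000079081) ran from -1.80 to 0.17 and that of Aqp4-210 (ENSMUST00000234643) from -1.05 to 0.13, turning direction without fresh frozen 2; that of Aqp11-205 (ENSMUST00000206389) ran from -0.23 to 0.023, turning without RVC 1. With each library rescaled to 1 common FPKM total, Aqp8 averaged 1180 instead of 824. Aqp1 likewise averaged 10.6 instead of 7.42, Aqp4 75.3 instead of 50.3 and Aqp11 6.46 instead of 4.46. The size of that total is arbitrary, so the rescaled values are in another unit. Their rise does not show that the Aqp8 level depends on the processing. Leaving out libraries gave an Aqp8 mean of 750.1 to 885 FPKM. Genes past the threshold numbered 5 and moved to 0 without a filter on low values, without rows under 300 nt and without a trend, to 2 at a mean of at least 5 FPKM or with the most abundant row, and to 8 to 40 with a library left out. A replicate block on the sample number gave 112 genes and 0 aquaporins, but the numbers share no stated source and their deviations correlated at -0.13. The crossed pairing, added after seeing the data, gave 12 genes and 0 aquaporins; causes were not tested. Most rows of Aqp3, Aqp7 and Aqp9 had Cufflinks lower bounds of 0, so their order is not resolved; Aqp5 was listed at 0 with upper bounds of 0, and what sets that was not tested.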

Other observations

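The pattern over the 4 libraries was compared with that of other genes of at least 10 scaled FPKM, as the largest difference between 2 genes in their log2 deviations from their own means. Over only 4 libraries many genes can look alike by this measure. Nearest to Aqp8 were Upp1, a uridine phosphorylase gene, at 0.042, and Ppargc1a, a coactivator of mitochondrial genes, at 0.068, and 11 of 5332 genes were within 0.1. Nearest to Aqp1 were Sectm1b at 0.020 and the class I gene H2-Q1 at 0.024, with 60 of 5333 genes within 0.1.

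Aqp4 had no such company, with 0 of 5332 genes within 0.1. The nearest was Fabp2, the intestinal fatty acid binding protein gene, at 0.15, with 16.9, 14.5, 15.8 and 44.1 scaled FPKM in RVC 1, RVC 2, fresh frozen 1 and fresh frozen 2. The next was the immunoglobulin variable gene Ighv1-55 at 0.33, whose reads may be shared with related genes. Aqp11 spanned 0.48 on the log2 scale, too little for the comparison.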
